A study of Mus musculus with 28 samples.

Results

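The genes that build and load the MHC class I molecule were followed in a mouse lung carcinoma line and in the tumors it formed. The 10 members were B2m, H2-K1, H2-D1, Tap1, Tap2, Tapbp, Psmb8, Psmb9, Psmb10 and Nlrc5. They were chosen by symbol, and 10 of 10 had a row with that symbol among the 43143 rows of the expression table. Only B2m was listed as a whole gene. The symbol of each other member stood on a single transcript, which was a retained-intron transcript for H2-K1, H2-D1, Tap1, Tap2 and Psmb9, a protein-coding transcript for Tapbp and Psmb8, and a processed transcript for Psmb10 and Nlrc5. A value below therefore speaks for that row, and 29 further rows without a symbol belong to the same 10 genes.

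MHC class I molecules carry peptides from inside the cell to its surface, where CD8+ T cells read them. The heavy chain (H2-K1 or H2-D1) pairs with the light chain B2m, while Tap1 and Tap2 pump peptides into the endoplasmic reticulum and Tapbp (tapasin) bridges the pump to the empty heavy chain. Psmb8, Psmb9 and Psmb10 replace the constitutive catalytic subunits Psmb5, Psmb6 and Psmb7 in the immunoproteasome. Nlrc5 is the transactivator that drives class I promoters, and interferon gamma induces most of these genes in many cell types.

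The cells were 3LL, a line of Lewis lung carcinoma from C57BL/6 mice. WT was the unedited line. KEAP1-KO was derived from a single colony and carried a 1-bp insertion in exon 2 of Keap1, so that NRF2, which KEAP1 targets for degradation, accumulates. DKO was made from KEAP1-KO cells by a further edit in exon 5 of the NRF2 gene, and so carried the KEAP1 edit as well. The study made a pair of KEAP1-KO lines with this insertion, which of them gave these libraries is not given in the sources used here, and differences of a clone cannot be told apart from those of its edit. Cultured cells of the 3 genotypes gave 12 libraries. Tumors gave 16 libraries, from cells placed under the skin of male albino C57BL/6 mice aged 6 weeks and grown for 10 days. In Experiment A the left flank received WT and the right flank KEAP1-KO cells, and in Experiment B the left flank received KEAP1-KO and the right flank DKO cells. Genotype and flank thus cannot be told apart within an experiment. Each of the 7 groups held 4 libraries. Nothing stated that the 4 cell libraries of a genotype came from separate cultures, so the p-values measure the spread between these samples, which may be technical there.

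Recovered read totals were 4222379 to 7524284 per library. The labels were checked with Keap1, whose normalized counts were 649 to 751 in WT cells against 179 to 197 in KEAP1-KO and 153 to 173 in DKO cells, and 436 to 501 in WT tumors against 136 to 229 in the other 3 tumor groups. Nqo1, a detoxifying enzyme under NRF2 control, was 93.2 to 129 in WT tumors, 3890 to 5816 in the KEAP1-KO tumors and 34.1 to 72.0 in DKO tumors. The row of Nfe2l2, the NRF2 gene, is a processed transcript and checks nothing, since a small edit need not remove the RNA.

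Tumors are mixtures, and in bulk RNA fewer cells of a type and less RNA per cell cannot be told apart. The summed normalized count of 7 leukocyte markers was 2860 to 3569 in WT tumors and 652 to 733 in the Experiment A KEAP1-KO tumors. It was 1065 to 1403 in KEAP1-KO and 1969 to 3209 in DKO tumors of Experiment B, against 2.28 to 13.7 in cultured cells. In Experiment A 7 of 7 leukocyte markers and 10 of 10 macrophage markers fell, where 7.49% of all rows fell, and in Experiment B 7 of 7 and 6 of 10 rose, where 4.22% of all rows rose (limma, adjusted p under 0.05). Among the cells, Laptm5 and Cd52 were at 0 in every WT library, Cd52 in every KEAP1-KO library and Ptprc in every DKO library. The summed 6 fibroblast markers were 4296 to 11373 in WT, 1668 to 4468 and 2412 to 3216 in the KEAP1-KO, and 10359 to 14252 in DKO tumors. In cells they were 266 to 434 in WT, 384 to 467 in KEAP1-KO and 550.1 to 699 in DKO. The T and NK cell sum was 57.7 to 125 in WT against 22.4 to 29.95 in KEAP1-KO tumors, and 17.96 to 27.4 in KEAP1-KO against 46.05 to 75.3 in DKO tumors. The carcinoma cell sum was 2611 to 3348 in WT, 2272 to 3426 and 2120 to 2652 in the KEAP1-KO, and 1497 to 2141 in DKO tumors, and in cells 4521 to 5252 in WT, 3243 to 3535 in KEAP1-KO and 2626 to 2697 in DKO. The dendritic cell sum was 359 to 432 in WT against 211 to 290.1 in KEAP1-KO tumors, and 219 to 273 in KEAP1-KO against 249 to 263 in DKO tumors. The neutrophil sum was 411 to 1718 against 111 to 386 in Experiment A, and 98.8 to 255 against 223 to 294 in Experiment B. These values stand beside each tumor result below, and their part in those results was not tested.

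**Figure D1:**
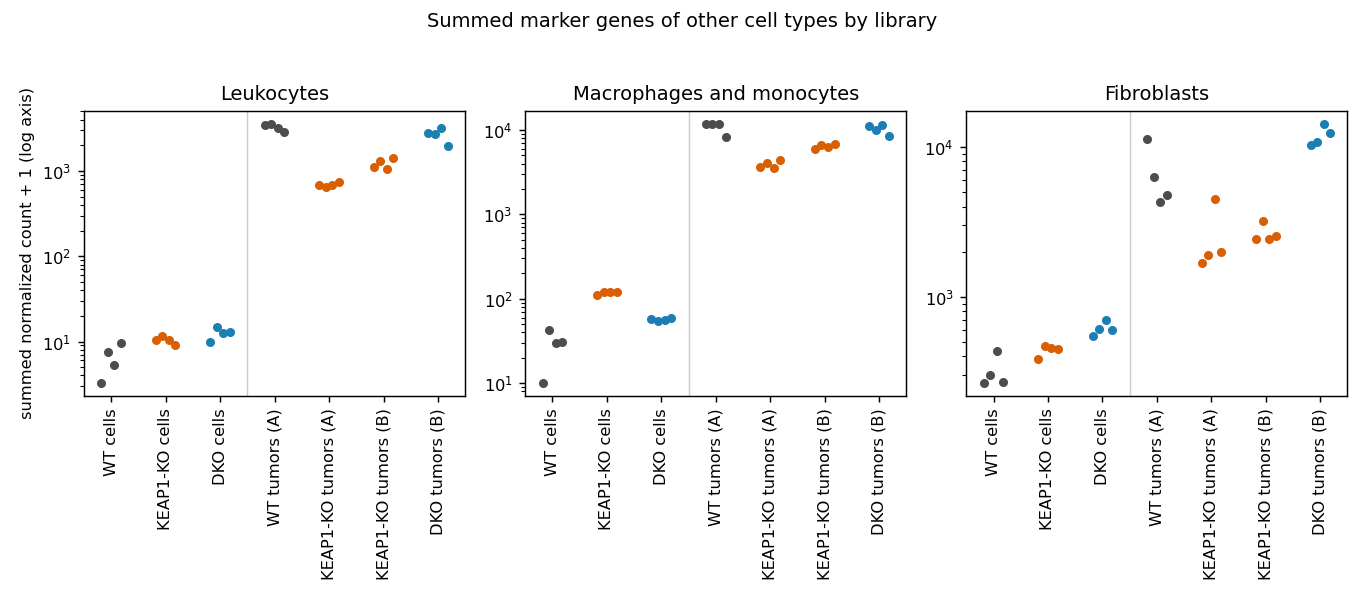
Summed normalized count of the leukocyte, macrophage and fibroblast markers plus 1, on a log axis, in each library (points) of the 7 groups. The leukocyte sum lay between 652 and 733 in the Experiment A KEAP1-KO tumors and between 2860 and 3569 in the WT tumors.

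Promoter sequence was available for 8 of the 10 genes, Tap2 and Nlrc5 being the exceptions, from RefSeq on GRCm38.p6 as windows of 300 bases that begin 250 bases before the start. The stretches below are shown because they hold letters that known regulators of class I genes, or NRF2, recognise, and capitals mark those letters. B2m carries an interferon-response pattern and an inverted CCAAT box, H2-K1 and H2-D1 share a kappa B pattern, H2-K1 also holds an antioxidant response element core on the other strand, the Tap1 stretch is the CCAAT box of the head-to-head Tap1 and Psmb9 start region, and Psmb8 carries the inverted repeat TTCNNNGAA.
B2m, chr2:122147537-122147646, plus strand: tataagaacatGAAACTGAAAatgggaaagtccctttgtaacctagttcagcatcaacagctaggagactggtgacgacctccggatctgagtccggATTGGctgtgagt
H2-K1, chr17:34000368-34000477, minus strand: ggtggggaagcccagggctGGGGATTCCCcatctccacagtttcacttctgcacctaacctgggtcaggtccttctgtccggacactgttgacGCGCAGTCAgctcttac
H2-D1, chr17:35262913-35262942, plus strand: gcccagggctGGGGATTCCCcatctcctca
Tap1, chr17:34187322-34187351, plus strand: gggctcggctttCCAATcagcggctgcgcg
Psmb8, chr17:34198088-34198117, plus strand: tcctccgctgTTCCCAGAAgatgccccccc

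The motifs were searched as letters on both strands of every window. GAAA followed after any 2 bases by GAAA was found in B2m and in 3.44% of all 32851 promoters. GGG followed after any 2 bases by TTCCC was found in H2-K1 and H2-D1 and in 1.75% of all promoters. TTCNNNGAA was found in Psmb8 and in 8.3% of all, and TGACNNNGC, the core of the antioxidant response element that NRF2 recognises, in H2-K1 and in 12.4% of all. CCAAT was found in 6 members and in 37.4% of all, and H2-K1, H2-D1 and Tapbp each held it at 2 positions of a window. Psmb10 held none of these 5 patterns. A match is a description of the letters and not evidence of a bound site.

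The comparison of KEAP1-KO with WT tumors in Experiment A asks how class I genes stand when the graft lacks KEAP1. Of the 10 members 7 fell and none rose, where 7.49% of all 34215 rows tested fell, 5.61% rose and 13.1% changed in either direction (limma, Benjamini-Hochberg adjusted p under 0.05 over all rows tested). The median log2 difference of the 10 rows was -0.89, beside -0.03 over all rows tested. B2m, H2-K1, Tap2, Tapbp, Psmb8, Psmb9 and Nlrc5 passed, and H2-D1, Tap1 and Psmb10 did not. In Experiment B, which compares DKO with KEAP1-KO tumors and so adds the loss of NRF2, 7 of the 10 rose and none fell, where 4.22% of all rows rose, 4.64% fell and 8.86% changed. The median of the 10 was 1.20, beside 0.00 over all rows. Here B2m, H2-K1, Tap1, Tap2, Tapbp, Psmb9 and Nlrc5 passed, and H2-D1, Psmb8 and Psmb10 did not. The rows of Psmb8 and Psmb9 passed the count filter of the fit only through the WT and DKO tumors, where they were high. Their calls are kept in the counts above but lean on that filter. With any 1 of the 8 libraries left out 5 or 6 members were called in Experiment B. The KEAP1-KO libraries of the 2 experiments are different tumors, so these 2 comparisons share no library.

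**Figure D2:**
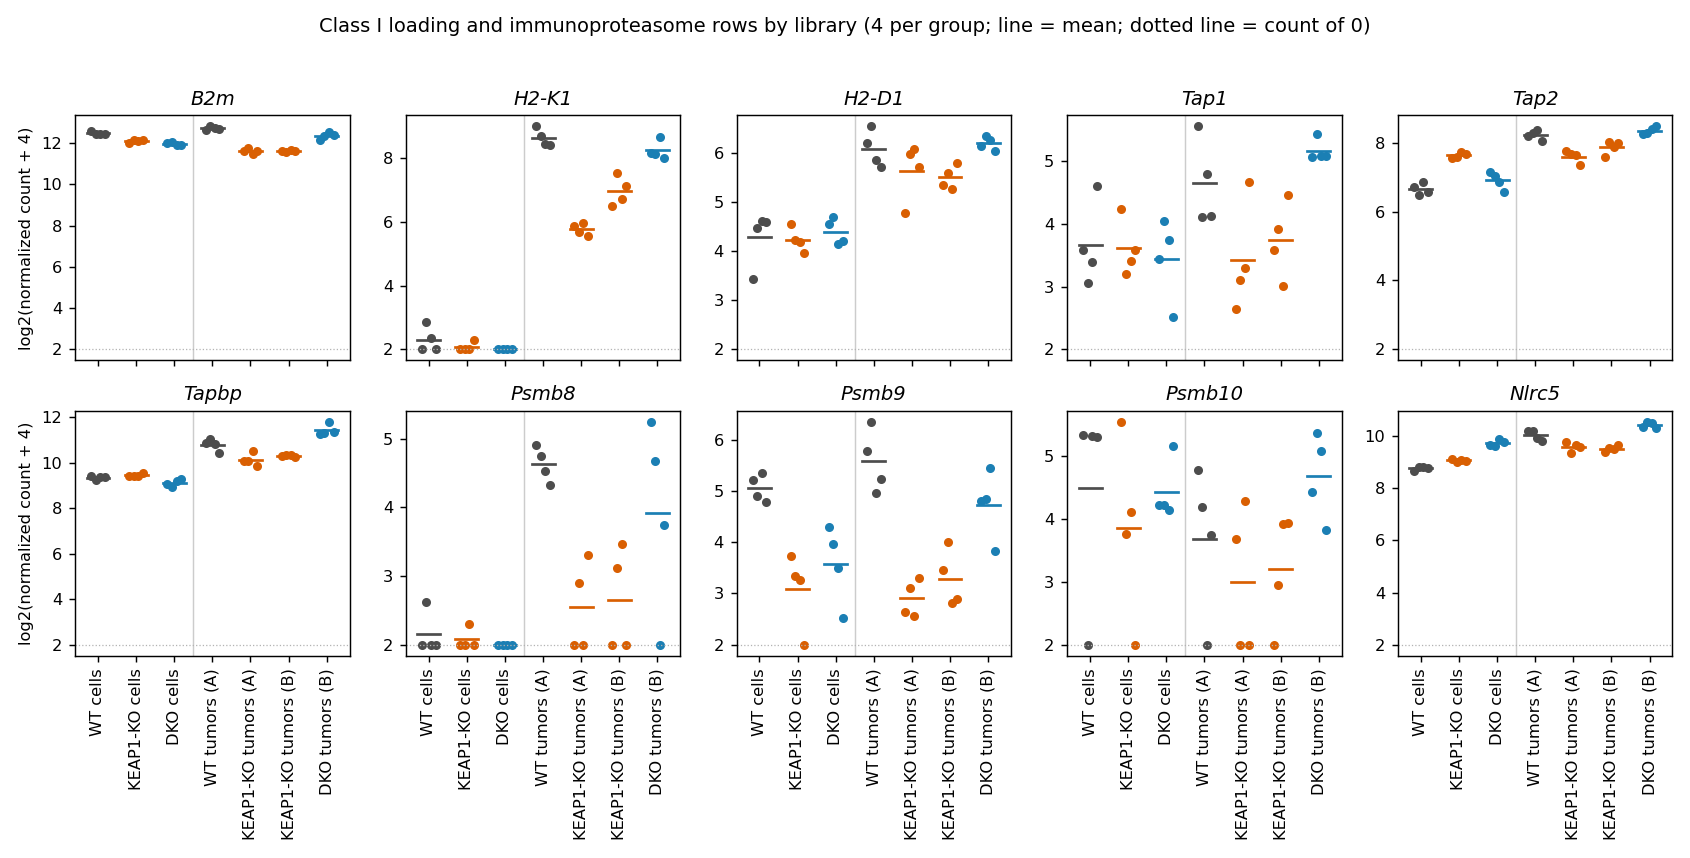
Normalized counts of the 10 members in each of the 28 libraries (points), by group, as log2(normalized count + 4), with the group mean as a line and a dotted line at a count of 0. In counts, B2m lay between 2836 and 3460 in the 8 KEAP1-KO tumors and between 4635 and 7196 in the WT and DKO tumors.

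B2m, the light chain shared by all class I molecules, was the member measured as a whole gene. Its normalized counts were 6402, 7196, 6789 and 6707 in WT tumors and 3191, 3460, 2836 and 3116 in KEAP1-KO tumors of the first experiment. Those of Experiment B were 3167, 3009, 3211 and 3193 in KEAP1-KO and 4635, 5190.3, 5890.3 and 5414 in DKO tumors. Every KEAP1-KO tumor was below every WT and every DKO tumor. The mean was 2.15-fold lower in KEAP1-KO tumors than in WT (log2 difference -1.11, SE 0.07, adjusted p = 5.16e-08) and 1.68-fold higher in DKO than in KEAP1-KO tumors (0.74, SE 0.07, adjusted p = 5.68e-06).

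In culture the B2m counts were 6140.2, 5563, 5595 and 5584 in WT, 4129, 4534.5, 4461 and 4564 in KEAP1-KO, and 4083, 4221, 3883 and 3919 in DKO cells. WT cells stood above both edited lines without overlap, and the edited lines overlapped each other. B2m fell by 0.37 on the log2 scale in KEAP1-KO against WT cells (SE 0.05, adjusted p = 0.000106) and by 0.51 in DKO against WT cells (adjusted p = 6.82e-06). It was not called between DKO and KEAP1-KO cells. In order of mean, B2m ran from WT tumors through WT cells, DKO tumors, KEAP1-KO cells and DKO cells to the KEAP1-KO tumors, and the neighbours whose ranges overlapped were WT cells with DKO tumors, KEAP1-KO with DKO cells, and the KEAP1-KO tumors of the 2 experiments.

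H2-K1 encodes a classical heavy chain. Its retained-intron row held 508, 409, 345 and 340.4 normalized counts in WT tumors and 54.5, 47.4, 58.0 and 42.8 in the Experiment A KEAP1-KO tumors. The Experiment B KEAP1-KO tumors held 85.8, 182, 100.4 and 137, and DKO tumors 286, 278, 406 and 253. The groups did not overlap in either experiment. The mean was 7.9-fold lower in KEAP1-KO tumors than in WT (log2 difference -2.88, SE 0.21, adjusted p = 1.59e-07) and 2.42-fold higher in DKO than in KEAP1-KO tumors (1.28, SE 0.21, adjusted p = 0.000766).

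The H2-K1 row was near 0 in culture, with 0, 3.24, 1.08 and 0 counts in WT, 3 libraries at 0 and 1 at 0.895 in KEAP1-KO, and 0 in all 4 DKO libraries, so it was not tested there. All 9 rows of the gene together held 13.9 to 22.8 counts in WT, 15.8 to 21.5 in KEAP1-KO and 11.5 to 17.9 in DKO cells, against 481 to 672 in WT tumors. The low values in culture were thus not confined to the row with the symbol. Class I heavy chains are near-identical in sequence, so reads may have been split between H2-K, H2-D, H2-Q and H2-T genes and their single values are uncertain.

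H2-D1, the other classical heavy chain, held 70.1, 89.5, 53.9 and 48.4 counts in WT tumors and 23.3, 59.0, 63.8 and 48.7 in the Experiment A KEAP1-KO tumors. The ranges overlapped, and the difference was not called (-0.44, SE 0.25, adjusted p = 0.31), running from -0.59 to -0.16 with 1 library left out. In Experiment B the row held 36.9, 44.7, 34.5 and 52.0 in KEAP1-KO and 66.8, 77.3, 72.9 and 62.2 in DKO tumors, which did not overlap. That difference of 0.69 did not pass over all rows tested (adjusted p = 0.111), although it passed when limma was fitted on those 8 libraries alone (adjusted p = 0.0209). Cultured cells held 6.84 to 20.6 in WT, 11.6 to 19.5 in KEAP1-KO and 13.6 to 22.1 in DKO, and the 3 ranges overlapped.

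Tap2 is a subunit of the peptide pump. Its row held 288, 307, 325 and 261 counts in WT tumors and 212, 199, 195 and 159.6 in the Experiment A KEAP1-KO tumors. In Experiment B it held 190.5, 258, 231 and 253 in KEAP1-KO and 305, 308, 333 and 352 in DKO tumors. Neither pair of groups overlapped. Tap2 fell 1.54-fold in Experiment A (-0.62, SE 0.11, adjusted p = 0.0011) and rose 1.39-fold in Experiment B (0.48, SE 0.11, adjusted p = 0.0113).

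Cultured cells showed the opposite direction for Tap2. WT cells held 100.3, 85.2, 113 and 91.2 counts, KEAP1-KO cells 186, 189.6, 207 and 201, and DKO cells 139.7, 128, 113 and 90.5. KEAP1-KO cells were above every WT and DKO library, and WT and DKO cells overlapped. Tap2 was 2.01-fold higher in KEAP1-KO than in WT cells (0.99, SE 0.13, adjusted p = 0.000158), and fell by 0.73 on the log2 scale in DKO against KEAP1-KO cells (SE 0.13, adjusted p = 0.00257). In order of mean Tap2 ran from DKO and WT tumors, which overlapped, through the KEAP1-KO tumors and KEAP1-KO cells, whose neighbouring ranges overlapped, to DKO and WT cells.

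Tap1, the other pump subunit, was low in its symbol row. WT tumors held 43.1, 13.3, 23.8 and 13.6 counts and Experiment A KEAP1-KO tumors 2.22, 4.62, 5.80 and 21.4, which overlapped, and the difference of -1.22 was not called (adjusted p = 0.0698), although it was without KEAP1-KO replicate 4. In Experiment B KEAP1-KO tumors held 7.98, 11.2, 4.06 and 18.1 and DKO tumors 29.6, 39.1, 29.9 and 29.8, without overlap, and Tap1 rose by 1.42 (SE 0.42, adjusted p = 0.0463). This call sat close to the threshold. It was lost with a pseudocount of 1 (limma adjusted p = 0.0663), with no filter (0.0659), without a mean-variance trend (0.0593) and when any of 7 of the 8 libraries was left out.

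Summed over its 4 rows, Tap1 held 82.3 to 117 counts in WT and 17.3 to 36.7 in the Experiment A KEAP1-KO tumors, and 30.9 to 42.9 in KEAP1-KO and 83.3 to 113 in DKO tumors of Experiment B. On these sums Tap1 fell by 1.79 on the log2 scale in Experiment A (limma adjusted p = 5.09e-06). In culture the symbol row held 4.32 to 20.4 in WT, 5.24 to 14.9 in KEAP1-KO and 1.71 to 12.6 in DKO cells, all overlapping.

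Tapbp held 1861, 2133, 1801 and 1370.0 counts in WT tumors and 1066, 1077, 1448 and 936 in the Experiment A KEAP1-KO tumors. 1 KEAP1-KO tumor stood above the lowest WT tumor, and Tapbp fell 1.58-fold (-0.66, SE 0.15, adjusted p = 0.00577). In Experiment B it held 1252, 1308, 1291 and 1210.4 in KEAP1-KO and 2448, 2579, 3580.1 and 2659 in DKO tumors. These groups stood apart, and Tapbp rose 2.23-fold (1.14, SE 0.15, adjusted p = 9.75e-05).

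In culture Tapbp held 673, 599, 659 and 654 counts in WT, 690.1, 689, 682 and 738 in KEAP1-KO, and 538, 482, 589 and 615 in DKO cells. KEAP1-KO cells were above every WT library, but that difference was not called. Tapbp fell by 0.33 on the log2 scale in DKO against KEAP1-KO cells (SE 0.07, adjusted p = 0.0107), the opposite direction to the tumors. That call was lost when limma was run without a mean-variance trend (adjusted p = 0.078). DKO tumors were highest of the 7 groups and did not overlap WT tumors, while the KEAP1-KO tumors of the 2 experiments overlapped each other.

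Among the immunoproteasome subunits, Psmb9, which takes the place of Psmb6, was called in both experiments. Its row held 51.2, 78.1, 27.4 and 34.0 counts in WT tumors and 2.22, 4.62, 1.93 and 5.84 in the Experiment A KEAP1-KO tumors. The groups did not overlap, and Psmb9 fell by 2.69 on the log2 scale (SE 0.38, adjusted p = 0.000123). In Experiment B it held 6.98, 12.1, 3.04 and 3.39 in KEAP1-KO and 24.1, 24.7, 39.7 and 10.2 in DKO tumors. The lowest DKO tumor overlapped the highest KEAP1-KO tumor, and Psmb9 rose by 1.44 (SE 0.38, adjusted p = 0.024). With any of 5 of the 8 libraries left out that rise was no longer called, the difference ranging from 1.20 to 1.74. The rise was also not called when limma was fitted on those 8 libraries alone (adjusted p = 0.0508).

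Psmb9 also differed in culture. WT cells held 33.1, 25.9, 36.8 and 23.6 counts, KEAP1-KO cells 9.29, 6.12, 5.66 and 0, and DKO cells 15.6, 11.6, 7.33 and 1.71. WT cells were above every edited library, and the edited lines overlapped. Psmb9 fell by 1.98 on the log2 scale in KEAP1-KO against WT cells (SE 0.42, adjusted p = 0.00616) and by 1.496 in DKO against WT cells (adjusted p = 0.0277), the second of these being lost with a pseudocount of 1 (adjusted p = 0.0992) and when any of 4 of the 8 libraries was left out. The summed leukocyte markers were 2.28 to 8.58 in WT and 8.06 to 10.48 in KEAP1-KO cells, and the 10 macrophage markers summed to 9.12 to 42.1 in WT, 109.6 to 121 in KEAP1-KO and 53.6 to 58.1 in DKO cells. Of the 10 macrophage markers 9 had a mean under 5 in WT and in KEAP1-KO cells. C1qa, C1qb, C1qc and Adgre1 were at 0 in every KEAP1-KO cell library, so this sum does not speak for the list as a whole. The part of these markers in the Psmb9 result was not tested.

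Psmb8, which replaces Psmb5, held 26.0, 22.9, 19.2 and 16.1 counts in WT tumors and 0, 3.47, 0 and 5.84 in the Experiment A KEAP1-KO tumors. It fell by 2.08 (SE 0.57, adjusted p = 0.0235), without overlap, and that call was lost with a pseudocount of 1 (adjusted p = 0.0526) or with any of 4 of the 8 libraries left out. In Experiment B it held 0, 4.66, 7.10 and 0 in KEAP1-KO and 34.0, 21.6, 0 and 9.38 in DKO tumors, and the difference of 1.27 was not called (adjusted p = 0.216). The DKO tumor at 0, replicate 3, overlapped the KEAP1-KO tumors. With 1 library left out the difference ran from 0.83 to 1.91, and without that tumor it was called. Over the gene's 4 rows the sums were 42.0 to 62.9 in WT against 0 to 9.66 in the Experiment A KEAP1-KO tumors, and 18.3 to 23.9 in KEAP1-KO against 33.2 to 55.6 in DKO tumors of Experiment B. In culture the symbol row was at 0 in all but 2 of 12 libraries, and the highest held 2.16.

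Psmb10, which replaces Psmb7, was scattered within groups. Its row held 23.4, 14.3, 0 and 9.34 counts in WT tumors and 8.89, 0, 15.5 and 0 in the Experiment A KEAP1-KO tumors. In Experiment B it held 0, 3.72, 11.2 and 11.3 in KEAP1-KO and 17.5, 37.1, 29.9 and 10.2 in DKO tumors. The ranges overlapped and no tumor comparison of this row was called. Summed over 6 rows the gene held 43.3 to 50.3 in WT and 9.25 to 31.9 in the Experiment A KEAP1-KO tumors, a fall of 1.13 on the log2 scale (limma adjusted p = 0.0123). On the same sums it rose by 0.99 in Experiment B (limma adjusted p = 0.0346). In culture the symbol row held 36.5, 0, 35.8 and 35.4 in WT, 42.7, 9.61, 13.2 and 0 in KEAP1-KO and 14.7, 14.7, 13.6 and 31.6 in DKO cells, with no call.

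Each inducible subunit was then set against its constitutive partner within a library, as the log2 value of the first minus that of the second. Such a ratio is compared only between groups, since row lengths differ. The rows of Psmb6 and Psmb7 are retained-intron transcripts, while Psmb5 is a whole gene. Psmb9 against Psmb6 was lower by 2.94 in KEAP1-KO than in WT tumors, higher by 1.67 in DKO than in KEAP1-KO tumors, and lower by 2.30 in KEAP1-KO than in WT cells. In each of these the 4 libraries of a group stood wholly apart from the other 4 (exact two-sided permutation test, p = 0.0286, the smallest that 4 against 4 allows). Adjusted over the 12 tests of this family the smallest p was 0.0686, so no ratio passed on the symbol rows. With sums over all rows of a gene 8 ratios passed (exact permutation, adjusted p = 0.0429). With p bounded at 0.0286 no ratio could pass alone, and the adjusted p depends on how many of the 12 reach that bound together. A pass or a miss here therefore cannot decide about a single ratio. In DKO against KEAP1-KO cells Psmb9 to Psmb6 differed by 0.48 with overlap (exact permutation p = 0.429), and by 0.09 to 0.84 with 1 library left out.

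Psmb8 against Psmb5 was lower by 2.34 in KEAP1-KO than in WT tumors (exact permutation p = 0.0286) and higher by 1.72 in DKO than in KEAP1-KO tumors (exact permutation p = 0.0857). Psmb10 against Psmb7 was lower by 1.01 (exact permutation p = 0.2) and higher by 1.69 (exact permutation p = 0.0286) in the same comparisons. In cells its differences were -1.13 in KEAP1-KO against WT (exact permutation p = 0.286) and 0.72 in DKO against KEAP1-KO (exact permutation p = 0.429). With 1 library left out these ran from -1.93 to -0.50 and from 0.08 to 1.32, and the tumor value of -1.01 from -1.59 to -0.62. The partners had smaller differences. Psmb5 fell by 0.45 in Experiment B (adjusted p = 0.00568), Psmb7 rose by 0.33 in Experiment A (adjusted p = 0.00438), and Psmb6 was called in neither (limma). In KEAP1-KO against WT cells Psmb6 rose by 0.32 (adjusted p = 0.00709) and Psmb7 by 0.50 (adjusted p = 4.43e-05).

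**Figure D3:**
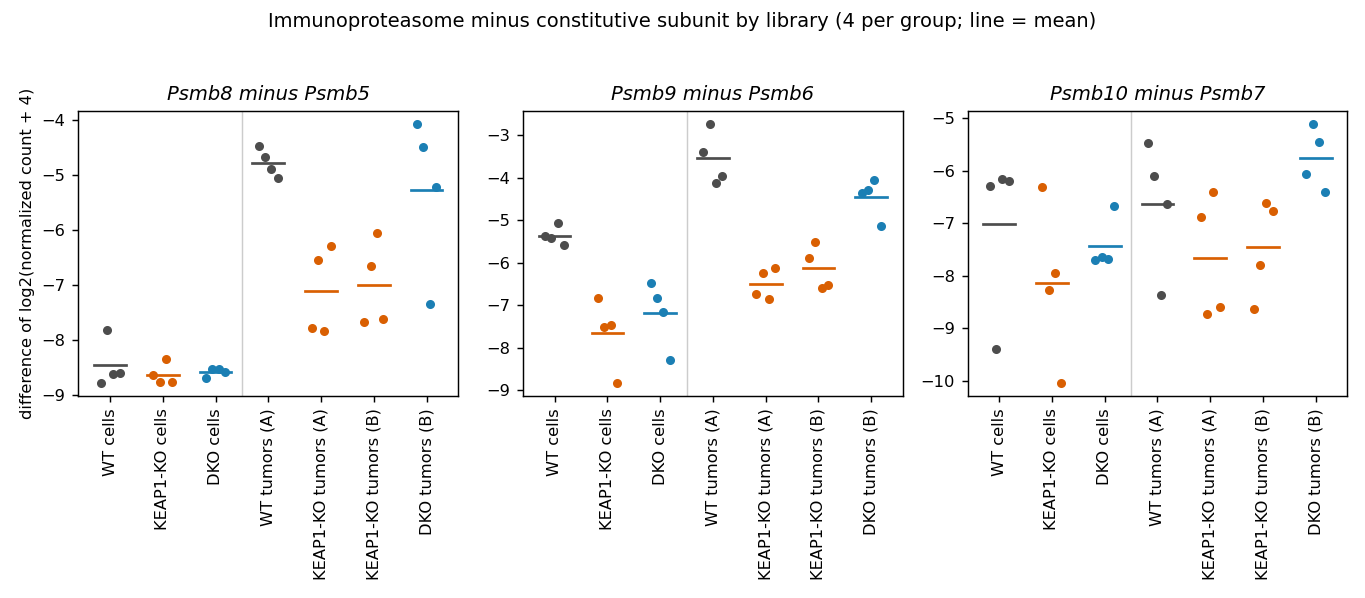
Log2 ratio of each inducible proteasome subunit to its constitutive partner in every library (points), by group, with the group mean as a line. Psmb9 against Psmb6 ran from -4.11 to -2.73 in WT tumors and from -6.85 to -6.12 in the Experiment A KEAP1-KO tumors.

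Nlrc5, the transactivator, held 1166, 1180.2, 989.7 and 905 counts in WT tumors and 869, 654, 809 and 767 in the Experiment A KEAP1-KO tumors. It fell 1.37-fold without overlap (-0.45, SE 0.10, adjusted p = 0.00758). In Experiment B it held 674, 753, 719 and 808 in KEAP1-KO and 1310.5, 1505, 1478 and 1259 in DKO tumors. It rose 1.88-fold, again without overlap (0.91, SE 0.10, adjusted p = 2.9e-05).

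In culture Nlrc5 held 406, 449.99, 449 and 441 counts in WT, 549.9, 519, 549 and 526 in KEAP1-KO, and 806, 789, 948 and 879 in DKO cells. The 3 genotypes did not overlap and rose in that order. The difference was 0.30 between KEAP1-KO and WT cells (SE 0.06, adjusted p = 0.00613), 0.67 between DKO and KEAP1-KO cells (SE 0.06, adjusted p = 1.71e-05) and 0.96 between DKO and WT cells (adjusted p = 4.42e-07). These 3 comparisons share libraries, and the smallest of them was lost without a mean-variance trend (adjusted p = 0.0594). Over all groups Nlrc5 was highest in DKO tumors, which overlapped no other group, and lowest in WT cells.

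**Figure D4:**
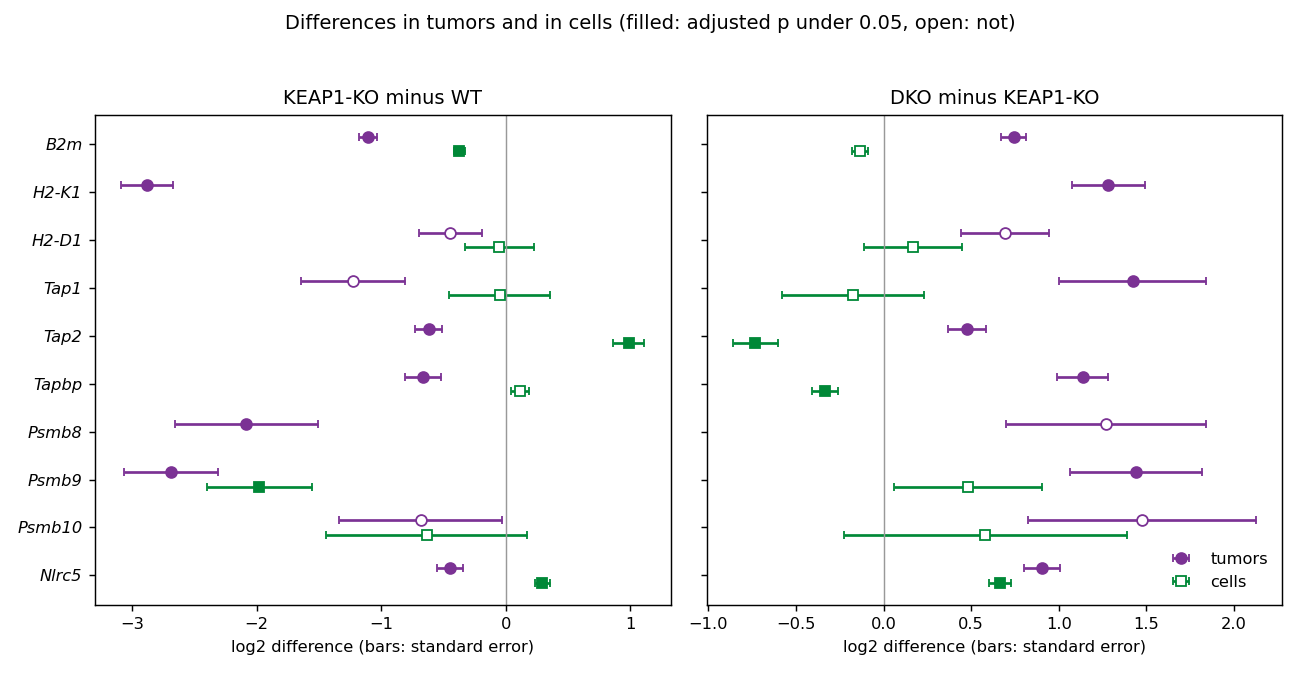
Log2 difference of each member with its standard error in Experiments A and B (tumors) and in the matching cell comparisons, with H2-K1 and Psmb8 not tested in cells and filled marks for adjusted p under 0.05 (limma). Tap2 was lower by 0.62 in KEAP1-KO than in WT tumors and higher by 0.99 in KEAP1-KO than in WT cells.

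Across the culture comparisons 8 members could be tested. KEAP1-KO against WT cells called 4 of 8, with B2m and Psmb9 lower and Tap2 and Nlrc5 higher, where 15.5% of all 29744 rows were called (8.13% higher, 7.33% lower). DKO against KEAP1-KO cells called 3 of 8, with Tap2 and Tapbp lower and Nlrc5 higher, where 8.83% of all rows were called (3.98% higher, 4.85% lower). DKO against WT cells called 3 of 8, with B2m and Psmb9 lower and Nlrc5 higher, where 17.7% were called (8.46% higher, 9.2% lower).

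Whether an edit moved a member by a different amount in tumors and in culture was tested as an interaction over all 28 libraries. For the KEAP1 edit, 5 of 10 members had a lower difference in tumors than in cells, where 3.88% of all 37246 rows did, 1.5% had a higher one and 5.38% were called in either direction. These were B2m (-0.73, adjusted p = 2.57e-06), H2-K1 (-2.65, adjusted p = 1.05e-06), Tap2 (-1.61, adjusted p = 4.83e-07), Tapbp (-0.78, adjusted p = 0.00646) and Nlrc5 (-0.74, adjusted p = 0.000311). For the NRF2 edit, 4 of 10 had a higher difference in tumors, where 2.12% of all rows did, 1.55% had a lower one and 3.67% were called. These were B2m (0.88, adjusted p = 4.16e-07), H2-K1 (1.36, adjusted p = 0.00667), Tap2 (1.21, adjusted p = 5.89e-05) and Tapbp (1.47, adjusted p = 7.14e-06). The H2-K1 row was at or near 0 in every cell library and passed the filter only through the tumors, so its values restate the tumor differences and depend on the pseudocount. Without it the counts are 4 for the KEAP1 edit and 3 for the NRF2 edit. Both interactions use the same KEAP1-KO cell libraries with opposite sign, so the results for the KEAP1 and NRF2 edits are not separate.

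Each tumor group was also set against cultured cells of its genotype. WT tumors were higher than WT cells for 7 members, where 24.7% of all rows were higher, 14.1% lower and 38.8% called, and DKO tumors were higher than DKO cells for 9, where 27.6% were higher, 15.9% lower and 43.5% called. KEAP1-KO tumors were higher for 4 and lower for B2m in each experiment, where 39.6% of all rows were called in Experiment A (23.9% higher, 15.8% lower) and 38.8% in Experiment B (23.9% higher, 14.9% lower). The rows of H2-K1, at 0 in 9 of 12 cell libraries, and Psmb8, at 0 in 10 of 12, passed the filter only through the tumors, so that their tumor-to-cell difference was settled by the filter and their calls, though in these counts, are no result. H2-D1, Tapbp and Nlrc5 were higher in tumors of all 4 groups, although Nlrc5 in the Experiment B KEAP1-KO tumors was not called after median centring (adjusted p = 0.0746). Tapbp was higher by 1.45 in WT, 0.67 and 0.85 in KEAP1-KO of Experiments A and B, and 2.32 in DKO tumors (limma adjusted p = 8.15e-05 or lower). The other members called were Tap2 in WT and DKO tumors, and Tap1 and Psmb9 in DKO tumors. Psmb9 was lost there with a pseudocount of 1 (adjusted p = 0.0531), quantile normalization (0.129), median centring (0.123) or only the groups compared (0.0547), and without DKO cell replicate 4 or DKO tumor replicate 3.

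The small tumor-to-cell differences of B2m turned on the scaling. B2m was higher by 0.24 in WT tumors but lower by 0.15 and not called after median centring (adjusted p = 0.0905), and was 0.49 lower in each set of KEAP1-KO tumors but 0.10 higher and not called (adjusted p = 0.197) and 0.15 higher (adjusted p = 0.046) after quantile normalization. In DKO tumors it was 0.39 higher, and 0.02 higher and not called after median centring. The median of all rows in these 4 comparisons was 0.16 to 0.23 as deposited, and median centring changed the split of all rows from 9197 higher and 5253 lower to 4726 higher and 8677 lower in WT. The interaction counts over all rows moved as well, from 559 higher and 1444 lower to 1299 and 1071 for the KEAP1 edit, and from 790 and 578 to 650 and 874 for the NRF2 edit. The members called in the interactions kept their calls and directions under median centring.

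The KEAP1-KO tumors of the 2 experiments could be compared with each other, and 0.164% of all rows were called (0.152% higher and 0.0117% lower in Experiment B). Of the members only H2-K1 differed, being 1.20 higher in Experiment B (SE 0.21, adjusted p = 0.0406). The call was lost with any of 5 of the 8 libraries left out, the difference ranging from 1.01 to 1.36. In these tumors the leukocyte sum was also higher in Experiment B, and its part in the H2-K1 difference was not tested. Experiment, flank and the tumor on the opposite flank all differed between these KEAP1-KO groups and cannot be told apart. DKO tumors of Experiment B were also set against WT tumors of Experiment A, which grew in different mice and on the opposite flank. This comparison called 3 of 10 members, where 10.6% of all rows were called (4.57% higher, 5.99% lower). B2m was 0.36 lower (adjusted p = 0.00348), Tapbp 0.65 higher (adjusted p = 0.00821) and Nlrc5 0.39 higher (adjusted p = 0.0219), the last being lost with any of 4 of the 8 libraries left out.

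The 29 rows of these genes without a symbol were tested in the same way. In Experiment A 7 of 25 tested rows fell and none rose, with a median of -0.74, where 13.1% of all rows were called. In Experiment B 3 of 25 (12%) rose and none fell, with a median of 0.48, where 8.86% of all rows were called. In KEAP1-KO against WT cells 1 of 12 rows (8.33%) was called, and it was higher, where 15.5% of all rows were called. The last 2 shares are near or below those of all rows.

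**Figure D5:**
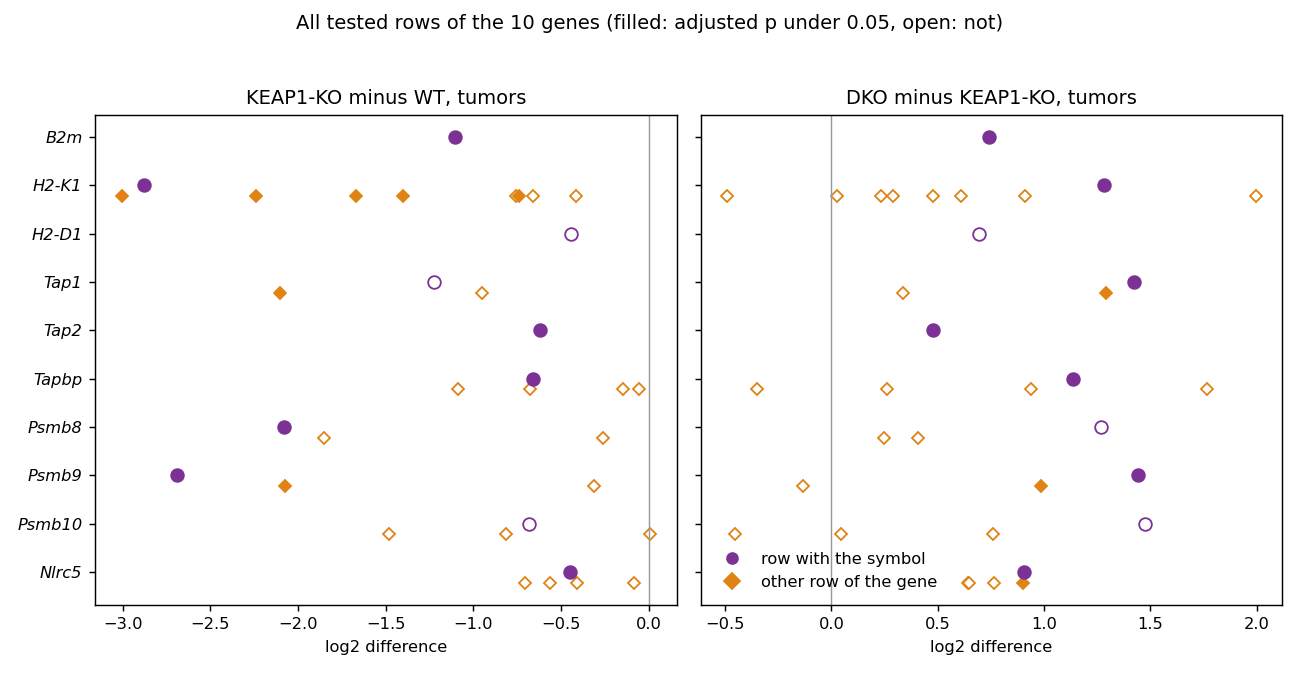
Log2 difference (x axis) of every tested row of the 10 genes in Experiment A (left) and Experiment B (right), with circles for rows that carry the symbol, diamonds for the others, and filled marks for adjusted p under 0.05 (limma). The symbol rows had a median of -0.89 in Experiment A and 1.20 in Experiment B.

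A wider list of class I genes described the surroundings of the 10 members, and 49 of its 59 genes had a row. The symbols of H2-Q4, H2-Q7, H2-T23, Erap1, Calr, Irf9, Nfyb, Psme2 and Ptprc stand on retained-intron transcripts, so their values too speak for that row. Of 14 other class I and class I-like genes, 9 fell in Experiment A and none rose, where 7.49% of all rows fell and 5.61% rose. In Experiment B 7 rose and Cd1d1 fell, where 4.22% of all rows rose and 4.64% fell. Those that differed most were H2-Q4, which fell by 3.21 in Experiment A (adjusted p = 0.000217) and rose by 1.76 in Experiment B (adjusted p = 0.0298), H2-Q6 (-2.79, adjusted p = 0.000116, and 1.51, adjusted p = 0.0221) and H2-Q7 (-2.33, adjusted p = 0.000394, and 1.49, adjusted p = 0.0178). Of 6 loading and trimming genes 2 fell in Experiment A, Erap1 (-2.33, adjusted p = 0.012) and Tapbpl (-0.62, adjusted p = 0.0108), and none was called in Experiment B. Calr, a chaperone of the loading complex, was called in neither.

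H2-T23, a nonclassical heavy chain that presents leader peptides, was, like Tap2, called in opposite directions in cells and tumors. It held 39.0 to 58.2 counts in WT, 76.2 to 104 in KEAP1-KO and 28.3 to 47.0 in DKO cells. In tumors it held 222 to 320 in WT, 87.6 to 108 and 94.96 to 114 in the KEAP1-KO and 185 to 271 in DKO tumors. It rose by 0.76 in KEAP1-KO against WT cells (adjusted p = 0.0106) and fell by 1.48 in KEAP1-KO against WT tumors (adjusted p = 1.37e-06).

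Of 13 transcription factors on the wider list, 4 fell in Experiment A, where 13.1% of all rows were called, and in Experiment B 2 rose and Nfyb fell, where 8.86% were called. Irf9, an interferon regulatory factor, fell by 1.52 (adjusted p = 0.000141) and rose by 1.22 (adjusted p = 0.00172), and in KEAP1-KO against WT cells it fell by 0.62 (adjusted p = 0.00627). Irf1 fell by 1.91 in Experiment A (adjusted p = 0.0321) with many libraries at 0. Of 5 genes of the interferon gamma pathway tested, 1 fell in Experiment A and 1 rose in Experiment B, against the same shares of all rows. Psme2, an activator subunit of the immunoproteasome, had a difference of -1.39 in Experiment A that was not called (adjusted p = 0.0684), and Psme1 was not tested. Ptprc, which encodes the pan-leukocyte antigen CD45, fell by 2.32 (adjusted p = 2.44e-08) and rose by 1.02 (adjusted p = 0.000178).

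The genes whose values most resembled the mean standardised value of the 10 members over the 16 tumors were Lhfpl2 (Pearson r 0.982), Tlr8 (0.977), Gbp2 (0.976), Pid1 (0.974) and AI504432 (0.973). Over the 12 cell libraries, with the 8 members tested, they were Gm14827 (0.855), Lrrc8d (0.824), Gm14288 (0.821), Cwc15 (0.814) and Polr3g (0.814). These were the highest of 15493 rows searched in tumors and 13437 in cells. In the cells the members did not move together, B2m correlating at 0.713 with Psmb9 and at -0.879 with Nlrc5. The mean value there mixes opposing members and stands for no shared pattern. These correlations describe the libraries, which fall into the study's groups and share genotype and depth, and carry no test.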

How the data were processed

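RNA of 12 cell and 16 tumor libraries was depleted of rRNA, made into strand-specific paired-end libraries and quantified by the authors with Salmon against GENCODE mouse transcripts. The methods name another GENCODE release than the vM21 used here to match rows, which held 96.95% of the listed transcripts. The genome build and the filter on rows are not given in the sources used here. The extract protocol in the labels names liver tissue, while titles and methods name 3LL cells and tumors, which are followed here. The deposited values are log2(normalized count + 4), as read from the file, where the lowest value is 2 in every library, while the methods speak of TPM. Undoing the log gave normalized counts, and 100% of low values were whole reads over 1 factor per library within 0.1 read. The depth limits low rows, where 1 read is about 1 normalized count. No column was left unused.

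Differences were tested on the deposited log2 values with limma 3.58.1 in R 4.3.3, with a mean-variance trend, two-sided, over all rows that reached 5 normalized counts in 4 or more of the fitted libraries, and Benjamini-Hochberg adjusted at 0.05. Fits held 34215 rows (16 tumors), 29744 rows (12 cell libraries) or 37246 rows (all 28), and 13 comparisons were made. A difference on this scale understates the change of low rows. Fold values are ratios of mean normalized counts. Subunit ratios were tested by exact permutation in Python 3.11.15 with scipy 1.17.1. The fit was tested on simulated data. Alternatives were a pseudocount of 1, no filter, a mean count filter of 25, quantile normalization, median centring, limma without a trend, a fit of the compared groups alone, sums over all rows of a gene (matched by transcript identifier to GENCODE vM21), a replicate block, and each library left out.

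All 10 members are named. Of the wider and marker lists, the 3 largest called differences of each main comparison and a fixed set of genes were to be named, with the 5 rows most like the members. A gene of that set is not reported here. The members and lists were chosen with earlier results of these data known. Promoters were not given for Tap2 and Nlrc5. Row and promoter coordinates were never mixed between builds.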

Additional observations from a re-analysis of the deposited data

Results flagged for a closer look

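Of 64 groups of 4 libraries, 6 held a library whose gap to its nearest neighbour, divided by the range of the group, was above Dixon's 95% critical value for 4 values. Chance gives about 1 in 20. They were B2m in WT cells (replicate 1 highest at 6140.16 normalized counts), H2-D1 in WT cells (replicate 1 lowest at 6.842), Tap1 in DKO tumors (replicate 2 highest at 39.15), Tapbp in KEAP1-KO cells (replicate 4 highest at 737.756), Psmb10 in WT cells (replicate 2 lowest at 0.0) and Psmb10 in DKO cells (replicate 4 highest at 31.592). No library was named for more than 2 members.

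The difference made by an edit was itself called as differing between tumors and cells in 9 tests (limma interaction). The tests of both edits share the KEAP1-KO cell libraries. For KEAP1 loss the log2 difference in tumors minus that in cells was -0.7346 for B2m, -2.6496 for H2-K1, -1.6053 for Tap2, -0.7761 for Tapbp and -0.7442 for Nlrc5. For NRF2 loss it was 0.8773 for B2m, 1.3555 for H2-K1, 1.2072 for Tap2 and 1.4702 for Tapbp. The H2-K1 row was at or near 0 in the cells and passed the filter only through the tumors, so its 2 values restate the tumor differences, and the second was lost with a pseudocount of 1 (adjusted p = 0.0892). Leukocyte and fibroblast markers differed between the same tumors, and their part in these differences was not tested.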

How the results depend on the processing

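With each library left out, the members called went from 7 to between 6 and 8 in Experiment A and from 7 to 5 or 6 in Experiment B, where every library left out cost at least 1 call. Psmb8 in Experiment A and Tap1 and Psmb9 in Experiment B were the calls that single libraries decided. Between the KEAP1-KO tumors of the 2 experiments the 1 call fell to 0 with no filter, with only the groups compared and without a trend, and ranged from 0 to 1 with a library left out, namely KEAP1-KO replicates 1, 2 or 4 of Experiment A or 2 or 4 of Experiment B. Summing all rows of a gene raised the called members from 5 to 8 in KEAP1-KO tumors of Experiment B against cells and from 5 to 8 for the KEAP1 interaction; the cause was not tested. On those sums 8 subunit ratios passed (exact permutation, adjusted p = 0.0429), with log2 differences of -2.73 and 1.34 for Psmb8 to Psmb5 in Experiments A and B, -3.11 and 1.60 for Psmb9 to Psmb6, -1.46 and 1.21 for Psmb10 to Psmb7, and in KEAP1-KO against WT cells -1.97 for Psmb9 to Psmb6 and -0.69 for Psmb10 to Psmb7.

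The direction of B2m turned in 3 places, to 0.10 and 0.15 for the KEAP1-KO tumors of Experiments A and B against cells under quantile normalization and to -0.15 for WT tumors against cells under median centring. The sources used here do not state that same-numbered libraries came from the same mouse, and they were not taken as pairs, since the correlations of their deviations ran from -0.141 to 0.259 in Experiment A and from -0.081 to 0.175 in Experiment B. With a replicate block 6 members were called in Experiment A and 6 in Experiment B, Psmb8 (-2.08, adjusted p = 0.0715) and Tap1 (1.42, adjusted p = 0.116) being lost. The block left the other counts within 1.5 times. Over WT and DKO cells 8 of 8 libraries correlated best with their own number, a hint from the data and not from the design. Rows near 1 read, such as Psmb8 and H2-K1 in cells, are limited by depth.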
